A study of Mus musculus with 26 samples.

Results

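Brown preadipocytes carrying an insulin receptor without its C-terminus (∆CT) were compared with cells carrying a receptor whose kinase was inactivated by the K1030R substitution, both without insulin. The comparison used 3 ∆CT and 3 K1030R dishes of the 26 RNA-sequencing libraries in the series, and every gene with more than 0.5 CPM (counts scaled to a common library size) in at least 4 of the 26 libraries, which gave 15402 tested genes. The cells came from the brown fat of newborn mice and were immortalised with the SV40 T-antigen. All lines share the Cre-mediated inactivation of the endogenous receptors for insulin (IR) and IGF-1 (IGF1R), a background called DKO, and the human receptors (IR isoform B, FLAG-tagged) were added by retrovirus. Both groups were starved of serum for 6 h and received 0 nM insulin. The same lines given 100 nM insulin for 15 min (3 K1030R and 2 ∆CT dishes) were used as a comparison that shares no library with the basal one, and basal DKO, IR and JMO cells (a receptor cut back to its juxtamembrane stretch) gave levels for orientation. Each receptor was studied in 1 transduced population, so the replicates measure dishes and a difference between receptors cannot be told apart from a difference between populations.

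The insulin receptor is a tyrosine kinase on the cell surface. Insulin binding activates the kinase, and the PI3K-AKT arm then promotes glucose use and holds FOXO transcription factors out of the nucleus, while the ERK arm induces immediate early genes. K1030R removes an essential lysine of the kinase active site, whereas ∆CT keeps the kinase domain and lacks the tail that follows it. Preadipocytes are matrix-producing precursor cells, and their contractile gene program is switched on by actin-dependent factors (MRTF with SRF, and YAP with TEAD).

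Libraries held between 17228982 and 21511285 expected counts, and the biological coefficient of variation over all groups was 4.44%. The labelled cell type was checked against its markers. The summed level of 9 preadipocyte markers was 873 to 888 CPM in K1030R and 950 to 983 CPM in ∆CT dishes. The main contributors were Pdgfrb and Pdgfra, receptors for platelet-derived growth factor, while Dlk1, Ebf2 and Prdm16 were at or near 0 in these dishes, so these 3 defining markers did not mark the cells. Adipoq, Ucp1 and Lep of mature fat cells, Adgre1 of macrophages, Myod1, Myog and Pax7 of skeletal muscle, and Epcam and Krt5 of epithelium were at 0 in all 6 dishes. Reads on Gm42418, a locus that overlaps ribosomal RNA, took 2.82% to 3.64% of the counts in K1030R and 4.09% to 4.64% in ∆CT dishes, and mitochondrially encoded transcripts took 3.53% to 3.62% and 3.32% to 3.46%. The part of this difference in library content in the results below was not tested. Dish 3 of ∆CT differed from the other ∆CT dishes in interferon-stimulated and glycolytic genes, and the counts of those lists are given with and without it.

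The lines were alike for most of the transcriptome. With all 26 libraries in the fit, 6 genes passed edgeR's minimum-fold test at 1.5-fold (0.039% of 15402 genes), 2 of them higher (0.013%) and 4 lower (0.026%) in ∆CT than in K1030R cells. The higher genes were Fbn2, which encodes fibrillin-2 of elastic microfibrils, and Hopx, a homeodomain-only protein. The lower genes were Acta2, which encodes smooth muscle actin, the cyclin gene Ccnd2, the membrane protein gene Ms4a4d, and Nova1, an RNA-binding splicing regulator. With edgeR's quasi-likelihood test and no minimum fold, 529 genes differed (3.43%), 229 higher (1.49%) and 300 lower (1.95%), and their median fold was 1.17. The 6 dishes did not overlap in CPM for 503 of the 529, against 18.1% of all tested genes. Of the 529, 314 differed by less than 1.2-fold, 62 by 1.5-fold or more and 17 by 2-fold or more. The number of these smaller calls depended on the libraries used. It was 301 without K1030R dish 1, 275 without K1030R dish 3 and 322 without ∆CT dish 1, and 137 when only the 6 libraries were fitted.

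Similarity was measured by the 95% interval of each fold change, because a missed threshold does not show that levels were equal. For 11521 genes (74.8%) the whole interval lay within 1.5-fold in either direction, and for 8361 (54.3%) within 1.2-fold. The bound depended on the level of the gene. It was met by 0.162% of genes under 1 CPM, 61% of those from 1 to 10 CPM, 98.6% of those from 10 to 100 CPM and 99.1% of those at 100 CPM or more, so for most genes under 1 CPM the depth bounded the difference no closer than 1.5-fold. Among the most abundant genes, Col1a1, the main chain of type I collagen, had 5912, 6286 and 6099 CPM in the K1030R dishes and 6524, 6099 and 6455 CPM in the ∆CT dishes. These ranges overlap. The log2 fold change (∆CT minus K1030R, here and below) was 0.06, with a 95% interval from -0.02 to 0.14. The interval was -0.10 to 0.02 for Fn1 (fibronectin), -0.02 to 0.12 for Lox, the collagen crosslinking enzyme, -0.06 to 0.03 for the elongation factor gene Eef1a1, and -0.09 to 0.04 for the desaturase gene Scd2.

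**Figure D1:**
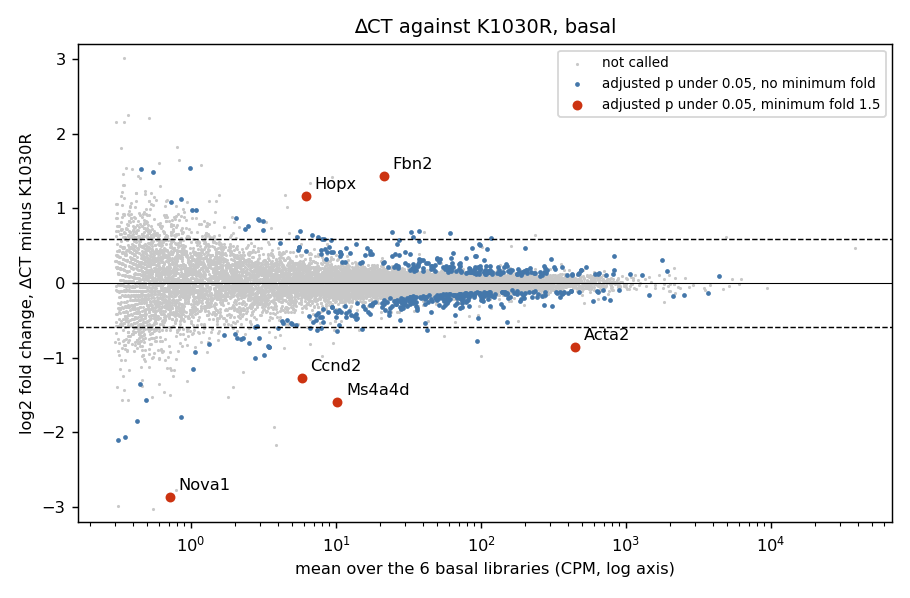
Log2 fold change of each gene, ∆CT minus K1030R without insulin, against its mean CPM over the 6 libraries (log axis); dashed lines mark 1.5-fold, red points the 6 genes of the minimum-fold test, and blue points the other genes of the 529. The 295 genes under 0.3 CPM and 9 genes beyond a log2 fold change of 3.2 are outside the axes, and above 10 CPM nearly all points lie between the dashed lines.

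On the scale of whole libraries the lines were barely further apart than dishes of a line. The root mean square difference of log2 CPM between 2 libraries was on average 0.411 between the lines and 0.398 within them. The gap of 0.0128 had an exact permutation p of 0.1 (two-sided), the lowest that 3 against 3 dishes allow. The distance weights every gene alike. The median half-width of the 95% interval was 0.849 log2 units for genes under 1 CPM and 0.0733 for those at 100 CPM or more. Noise of low genes therefore enters the distance, and a small gap does not show that abundant genes were equal. For orientation, the mean distance of basal libraries was 0.476 between IR and K1030R and 0.465 between IR and ∆CT cells, and 0.636 and 0.674 between DKO cells and these same mutant lines, the highest of the 10 pairs of lines being DKO against ∆CT.

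Fbn2 (ENSMUSG00000024598) had 10.24, 12.18 and 12.01 CPM in the K1030R dishes and 31.5, 28.0 and 33.7 CPM in the ∆CT dishes. Every ∆CT dish was above every K1030R dish, by 2.70-fold in the fit (log2 1.43, SE 0.08, adjusted p = 6.91e-16 by Benjamini and Hochberg's method in the quasi-likelihood test of edgeR, here and for single genes below). The basal means were 35.7 ± 0.506 CPM (SD, n = 3) in IR, 0.852 ± 0.124 in DKO and 6.34 ± 0.268 in JMO cells, so ∆CT was near the level of the intact receptor and K1030R lay between IR and JMO cells. Hopx (ENSMUSG00000059325, chr5:77086988-77115121, GRCm38) had 4.20, 3.98 and 3.26 CPM in K1030R and 8.35, 8.19 and 9.01 CPM in ∆CT dishes. The groups did not overlap, and ∆CT was 2.24-fold higher (log2 1.16, SE 0.13, adjusted p = 3.07e-07). IR and DKO cells had 12.04 ± 1.88 and 14.2 ± 1.63 CPM, above both mutant lines. Hopx was the weakest of the 6 in the minimum-fold test, and it lost that call in 5 of 6 fits that left out 1 dish.

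Acta2 (ENSMUSG00000035783, chr19:34241090-34255590) was the most abundant of the 6. Its level was 586, 555 and 588 CPM in the K1030R dishes and 319, 312 and 320 CPM in the ∆CT dishes. The spread within each line was small against the distance between them, and the gene was 1.82-fold lower in ∆CT cells (log2 -0.86, SE 0.03, adjusted p = 3.23e-19). IR cells had 400 ± 20.8 CPM, DKO cells 467 ± 10.3 and JMO cells 561 ± 9.89, so the ∆CT level was below all the other lines and the K1030R level was close to that of JMO cells. Ccnd2 (ENSMUSG00000000184, chr6:127125162-127152193), a D-type cyclin that drives entry into the cell cycle, had 8.94, 7.85 and 7.76 CPM in K1030R and 3.794, 3.196 and 3.105 CPM in ∆CT dishes. ∆CT cells had the lower level in every dish (log2 -1.27, SE 0.12, adjusted p = 5.77e-09), close to the 3.38 ± 0.228 CPM of IR cells. In bulk RNA, fewer cells expressing a gene and less of its RNA per cell cannot be told apart, here and below.

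Ms4a4d (ENSMUSG00000024678, chr19:11536801-11558467) had 14.8, 16.3 and 14.9 CPM in K1030R and 4.6, 4.994 and 5.744 CPM in ∆CT dishes. The groups were far apart (log2 -1.59, SE 0.10, adjusted p = 2.35e-14), and DKO cells had 34.4 ± 0.924 CPM. Nova1 (ENSMUSG00000021047, chr12:46694517-46818929) was a low gene, with 24, 22 and 24 counts in the K1030R dishes and 1, 2 and 7 counts in the ∆CT dishes. All K1030R dishes were higher, by a ratio of 7.64 with an exact 95% interval from 3.92 to 16.6 that covers counting error only (adjusted p = 1.36e-05). Basal IR, DKO and JMO cells had 0.283 ± 0.0891, 0.170 ± 0.0540 and 0.340 ± 0.0373 CPM, so a Nova1 level above 1 CPM was seen in K1030R cells and not in the other lines.

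**Figure D2:**
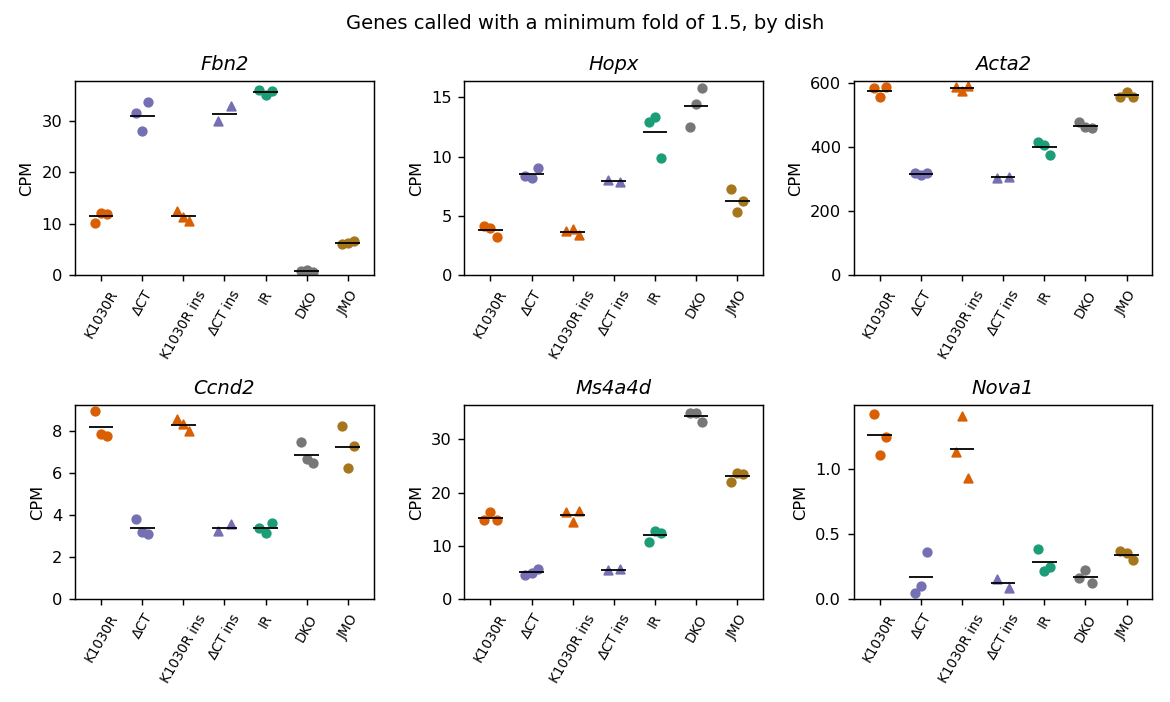
CPM in each dish (points; bars are group means; triangles are insulin dishes) of the 6 genes that passed the minimum-fold test, on axes that start at 0. In every panel the ∆CT and K1030R dishes do not overlap, and the dishes given insulin lie at the levels of the basal dishes of the same line.

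The contractile cytoskeleton and YAP target list held the highest share of differing genes. Of 21 tested members, 12 were lower in ∆CT cells and 0 higher (57.1%, against 3.43% of all genes and 1.95% in this direction), the other 9 did not pass the test, and all 21 estimates were below 0. The median log2 fold change was -0.17, against -0.0023 over all tested genes. The number of lower members was 7 without K1030R dish 1, 8 without K1030R dish 3 and 8 without ∆CT dish 3. Tagln, which encodes the actin-binding protein transgelin, had 121, 114 and 119 CPM in K1030R and 68.3, 71.2 and 66.1 CPM in ∆CT dishes. Every ∆CT dish was lower (log2 -0.78, SE 0.07, adjusted p = 1.09e-06). Myl9, the regulatory light chain of myosin II, had 52.7, 50.9 and 49.8 CPM in K1030R and 32.0, 32.5 and 34.7 CPM in ∆CT dishes, again without overlap (log2 -0.63, SE 0.06, adjusted p = 7.46e-10).

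The other members of the contractile list differed less. The YAP target Amotl2, which encodes an angiomotin family protein, had a log2 fold change of -0.31 (adjusted p = 1.95e-05), and caldesmon (Cald1), which binds actin and myosin, -0.22 (adjusted p = 3.68e-05). Filamin A (Flna), follistatin-like 1 (Fstl1), alpha-actinin 1 (Actn1), vinculin (Vcl) and the receptor tyrosine kinase gene Axl were lower by small amounts, with log2 fold changes of -0.17, -0.16, -0.14, -0.13 and -0.12. Ankrd1, a YAP-responsive ankyrin repeat gene, had 56.3, 43.8 and 53.4 CPM in K1030R and 40.1, 45.0 and 32.0 CPM in ∆CT dishes, and here the groups overlapped (log2 -0.38, SE 0.10, adjusted p = 0.0301). Ccn2, another YAP target, had a log2 fold change of -0.39 with adjusted p = 0.055. Outside the list, Myocd, which encodes the smooth muscle coactivator myocardin, had 1.302, 1.611 and 1.397 CPM in K1030R and 0.901, 0.549 and 0.466 CPM in ∆CT dishes (log2 -1.16, adjusted p = 0.0197), and its call was lost in 4 of 6 fits that left out 1 dish. Of the other 3 smooth muscle and pericyte markers, Myh11 and Cnn1 were at or below 0.414 CPM in all 6 dishes, and Rgs5, a pericyte regulator of G-protein signalling, had 3.97, 3.83 and 3.16 CPM in K1030R and 4.65, 4.54 and 4.40 CPM in ∆CT dishes (log2 0.31, adjusted p = 0.274). The summed smooth muscle and pericyte markers, of which Acta2 made nearly all, were 559 to 592 CPM in K1030R and 317 to 325 CPM in ∆CT dishes.

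**Figure D3:**
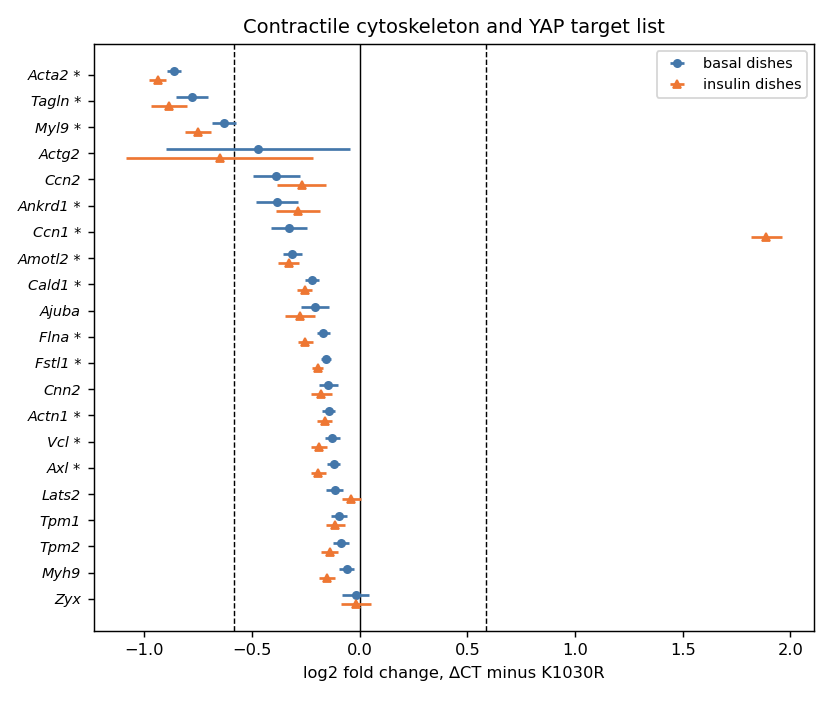
Log2 fold change with its SE for the 21 tested members of the contractile list, ∆CT minus K1030R, in basal dishes (circles) and insulin dishes (triangles); an asterisk marks the 12 genes called in basal dishes and dashed lines mark 1.5-fold. All basal estimates lie below 0, and Ccn1 is the member that lies far above 0 in insulin dishes.

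Promoter windows of contractile genes are shown because members of the list moved together. The windows are those of RefSeq on GRCm38.p6, 300 bases from 250 before to 50 after the start, printed 5′ to 3′ on the gene's strand. Capitals mark exact matches to CCWWWWWWGG (W is A or T), the palindromic consensus of the CArG box, the SRF-binding element. They also mark CATTCC or its reverse complement GGAATG, the core letters of the TEAD element. CArG-like stretches that differ from the consensus by a single letter were not counted, so the CArG counts can miss SRF sites. These matches do not overlap each other. Of 12 lower members, 11 had a window, in which 2 genes held a CArG box (18.2%) and 8 the TEAD letters (72.7%). Among all 19 list members with a window, called or not, the shares were 15.8% and 57.9%, and the list was assembled from genes known as targets of these factors. Over all 27025 genes in the table the shares were 1.81% and 16.6%, over the tested genes 1.59% and 14.5%. Among all genes that were lower in ∆CT cells, 4.33% of 231 held a CArG box and 18.2% the TEAD letters, and among the higher genes 0.571% of 175 and 17.1%. A match describes the letters in the window and no binding was measured. The Acta2 window (chr19:34255324-34255623, minus strand) holds a TEAD match 146 bases before the start. It also holds ccctatatgg and ccttgtttgg, each a single letter away from the CArG consensus and therefore not marked. The Myl9 window (chr2:156775214-156775513, plus strand) holds a CArG box 161 bases before the start. The Vcl window (chr14:20929148-20929447, plus strand) holds both, at 227 and 143 bases before the start, and the Ankrd1 window (chr19:36119795-36120094, minus strand) 2 TEAD matches.
Acta2: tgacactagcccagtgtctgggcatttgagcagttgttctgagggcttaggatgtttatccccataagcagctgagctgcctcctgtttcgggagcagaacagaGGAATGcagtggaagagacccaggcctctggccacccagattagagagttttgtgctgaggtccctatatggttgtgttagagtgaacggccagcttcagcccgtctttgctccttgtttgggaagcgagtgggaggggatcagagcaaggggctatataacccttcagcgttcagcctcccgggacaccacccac
Myl9: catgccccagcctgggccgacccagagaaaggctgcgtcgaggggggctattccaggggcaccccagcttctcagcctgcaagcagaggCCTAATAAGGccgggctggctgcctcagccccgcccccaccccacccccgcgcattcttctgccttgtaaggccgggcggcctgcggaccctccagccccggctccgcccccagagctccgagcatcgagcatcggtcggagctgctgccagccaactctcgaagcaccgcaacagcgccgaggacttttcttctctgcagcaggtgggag
Vcl: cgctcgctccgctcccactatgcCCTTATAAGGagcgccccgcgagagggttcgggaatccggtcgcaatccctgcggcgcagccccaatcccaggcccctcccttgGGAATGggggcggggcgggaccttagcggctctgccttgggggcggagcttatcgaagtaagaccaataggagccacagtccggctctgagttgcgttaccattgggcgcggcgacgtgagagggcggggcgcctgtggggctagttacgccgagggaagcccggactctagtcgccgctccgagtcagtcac
Ankrd1: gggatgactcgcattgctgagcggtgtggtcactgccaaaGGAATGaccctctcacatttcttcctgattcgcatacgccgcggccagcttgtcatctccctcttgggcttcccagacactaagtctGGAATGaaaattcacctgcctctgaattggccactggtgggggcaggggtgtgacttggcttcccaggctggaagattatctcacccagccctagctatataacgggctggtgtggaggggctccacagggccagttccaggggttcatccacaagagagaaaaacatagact

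Matrix genes differed in both directions. Of 32 tested collagen chains, 5 were higher and 4 lower in ∆CT cells (28.1%, median log2 fold change 0.08). Of all tested genes 3.43% were called, 1.49% higher and 1.95% lower. Abundant genes were called more often, with 162 of 2351 genes at 100 CPM or more, here and for the lists below. The higher chains were fibrillar or microfibrillar, namely Col3a1, Col6a2, Col6a3, Col1a2 and Col11a1, and 3 of 4 lower chains belonged to type IV collagen of basement membranes (Col4a1, Col4a2 and Col4a6), the remaining one being Col12a1. Col3a1 had 1509, 1667 and 1581 CPM in K1030R and 1943, 1866 and 2103 CPM in ∆CT dishes. These groups did not overlap (log2 0.31, SE 0.04, adjusted p = 3.08e-07). Col4a1 had 175, 176 and 180 CPM in K1030R and 121, 121 and 130 CPM in ∆CT dishes, also without overlap (log2 -0.52, SE 0.04, adjusted p = 2.19e-12), and its head-to-head neighbour Col4a2 followed with -0.33 (adjusted p = 8.84e-07). The Col4a6 call shares its counts with a second gene identifier. The calls of higher chains were fragile, with 1 left without K1030R dish 1, 2 without K1030R dish 3 and 1 without ∆CT dish 3, while 4 or 5 lower chains were called in every such fit.

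Of 39 tested proteoglycan, elastic fibre and adhesion genes, 2 were higher and 8 lower (25.6%, against 3.43% of all genes, median -0.04). Beside Fbn2, Postn (periostin, a matricellular protein) was higher, with a log2 fold change of 0.60 (SE 0.13, adjusted p = 0.0176). Tnc, which encodes the adhesion-modulating protein tenascin-C, had 52.5, 45.1 and 48.9 CPM in K1030R and 37.0, 35.6 and 28.5 CPM in ∆CT dishes, lower in each ∆CT dish (log2 -0.53, SE 0.07, adjusted p = 8.61e-06). The elastic fibre genes Fbln5 and Ltbp2 and the thrombospondin gene Thbs1 were lower too, with log2 fold changes of -0.19, -0.74 and -0.24. The number of lower genes was 4 without K1030R dish 1, and 5 without either K1030R dish 3 or ∆CT dish 1. Outside the lists, Sulf2, an enzyme that trims sulphate from heparan sulphate chains, had 27.3, 29.9 and 28.0 CPM in K1030R and 46.2, 41.9 and 49.9 CPM in ∆CT dishes (log2 0.69, SE 0.06, adjusted p = 2.55e-10), and the laminin gene Lama5 had 3.43, 4.03 and 3.57 against 1.66, 1.25 and 2.64 CPM (log2 -0.999, SE 0.18, adjusted p = 0.000584). Sulf2 and Lama5 were named under a rule that required groups without overlap, so their lack of overlap adds no support.

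The receptor genes themselves were near the same level without insulin. Insr had 76.9, 69.8 and 66.7 CPM in K1030R and 81.8, 78.8 and 74.6 CPM in ∆CT dishes. The ranges overlap, and the log2 fold change of 0.14 (SE 0.05) had adjusted p = 0.083. Insr was called higher in ∆CT cells without K1030R dish 1 (0.20, adjusted p = 0.0166) and without ∆CT dish 3 (0.18, adjusted p = 0.0319). It was not called in the other fits that left out 1 dish. DKO cells had 23.8 ± 1.32 CPM of Insr. Insr was counted on mouse transcripts although the added receptors are human, so its value is not a measure of the amount of receptor. Igf1r had a log2 fold change of -0.15 (SE 0.05, adjusted p = 0.138). Of 33 tested receptors, substrates and PI3K-AKT genes, 2 were higher and 1 lower (9.09%, against 3.43% of all genes). For 32 the interval lay within 1.5-fold, against 98.6% of all genes from 10 to 100 CPM and 99.1% from 100 CPM. Enpp1, a membrane phosphodiesterase that can bind the receptor, was higher (33.2, 36.3 and 30.7 against 39.1, 39.6 and 46.8 CPM, log2 0.32, SE 0.06, adjusted p = 0.000951), with no overlap of groups. The receptor adaptor Grb10 was slightly higher (log2 0.15, adjusted p = 0.00326) and the PI3K catalytic subunit gene Pik3cb slightly lower (log2 -0.19, adjusted p = 0.033), the latter call being lost in 5 of 6 fits that left out 1 dish. For the docking protein gene Irs1 the interval was 0.01 to 0.16, for Irs2 -0.11 to 0.11, for Akt1 -0.13 to 0.02 and for Akt2 -0.07 to 0.10, none of them called.

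Targets of FOXO factors were among the genes that were higher in ∆CT cells. Of 21 tested, 4 were higher and 1 lower (23.8%, against 3.43% of all genes), with a median log2 fold change of 0.10. For 18 the interval lay within 1.5-fold, against 74.8% of all tested genes. By level, that share was 61% from 1 to 10 CPM, 98.6% from 10 to 100 CPM and 99.1% from 100 CPM. Txnip, an inhibitor of glucose uptake and of thioredoxin, had 97.6, 106 and 94.5 CPM in K1030R and 118, 108 and 125 CPM in ∆CT dishes. Each ∆CT dish was higher, by a small amount (log2 0.23, SE 0.04, adjusted p = 0.000405). The stress sensors Sesn1 and Sesn3 had log2 fold changes of 0.19 and 0.19 (adjusted p = 0.00253 and 0.00464), the atypical cyclin Ccng2 0.26 (adjusted p = 0.00536), and the lower member was the mitochondrial superoxide dismutase Sod2 (-0.14, adjusted p = 0.00815). Without K1030R dish 1 the median was 0.05. Of 26 glycolysis and glucose entry genes, 4 were higher and 1 lower (19.2%, against 3.43% of all genes, median 0.10). The higher genes were the phosphofructokinases Pfkl and Pfkm, the aldolase Aldoa and the kinase gene Pdk1, and the lower gene was hexokinase 2 (Hk2), with 17.5, 14.1 and 15.8 CPM in K1030R against 12.76, 11.79 and 10.97 CPM in ∆CT dishes (log2 -0.41, SE 0.10, adjusted p = 0.0139). These calls turned on single dishes. Aldoa, for instance, had 546 and 535 CPM in ∆CT dishes 1 and 2 and 475 CPM in dish 3, against 453 to 463 CPM in K1030R. Without ∆CT dish 3, 10 glycolytic genes were higher and 0 lower, and without K1030R dish 3 none was called in either direction.

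Among secreted factors, more genes were lower than higher in ∆CT cells. Of 26 tested senescence-associated secreted factors, 5 were lower and 1 higher (23.1%, against 3.43% of all genes, median -0.24). Igfbp7, which binds insulin-like growth factors, had 118, 111 and 105 CPM in K1030R and 75.0, 79.9 and 86.5 CPM in ∆CT dishes. The groups did not overlap (log2 -0.47, SE 0.05, adjusted p = 1.09e-06). The macrophage growth factor gene Csf1 (-0.30, adjusted p = 0.000507), the angiogenic factor Vegfa (-0.25, adjusted p = 0.00462) and the chemokines Ccl2 and Cxcl5 (-0.30 and -0.34) were lower, and the gelatinase Mmp2 was higher (0.53, SE 0.07, adjusted p = 4.78e-06). The lower members were 2 without K1030R dish 1 and 3 without K1030R dish 3, and the median was -0.14 without ∆CT dish 3. Of 14 complement and acute-phase genes, 3 were lower and 0 higher (21.4%, against 3.43% of all genes), with a median of -0.14, and of -0.30 without ∆CT dish 3. Among the lower genes was Lcn2, which encodes the iron-scavenging protein lipocalin-2 (log2 -0.73, SE 0.14, adjusted p = 0.000704).

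The list of interferon-stimulated genes had no call, and that rested on 1 dish. Outside the list, the interferon-inducible Ifi205 was called lower in ∆CT cells and is given below. Of 46 tested, 0 passed edgeR's quasi-likelihood test in either direction (against 3.43% of all genes), 40 estimates were below 0, and the median was -0.17. At an unadjusted p under 0.05 the test named 8 of the 46, while limma-voom called 0 and DESeq2 1. Irf9, a DNA-binding subunit of the interferon-activated transcription factor, had 68.7, 78.6 and 71.1 CPM in K1030R, 53.8 and 51.5 CPM in ∆CT dishes 1 and 2, and 76.4 CPM in ∆CT dish 3. Isg15, a ubiquitin-like protein, had 15.9, 20.4 and 18.5 CPM in K1030R, 13.2 and 11.9 CPM in ∆CT dishes 1 and 2 and 24.6 CPM in dish 3. Without ∆CT dish 3, 23 of 46 were lower and 0 higher, and the median was -0.40. In the insulin dishes 3 of 46 were lower and 0 higher (against 2.78% and 2.25% of all genes), with a median of -0.31.

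Proliferation and sterol synthesis genes were bounded closely, like most genes at their level. An interval within 1.5-fold was found for 98.6% of all tested genes from 10 to 100 CPM and 99.1% from 100 CPM. Of 36 S phase, mitosis and proliferation genes, all 36 had an interval within 1.5-fold, and only Rrm2, a ribonucleotide reductase subunit, was called (log2 -0.17, adjusted p = 0.0246), a call lost in 4 of 6 fits that left out 1 dish, ∆CT dish 3 among them. Mki67, the proliferation antigen, had a log2 fold change of -0.02 with an interval from -0.11 to 0.07. Of 25 cyclin D, CDK inhibitor and p53 target genes, Ccnd2 was the only call, and its relative Ccnd1 had 40.6 ± 6.998 CPM in K1030R and 32.8 ± 8.08 CPM in ∆CT cells with adjusted p = 0.325. In the cholesterol list 1 of 24 (Tm7sf2, a sterol reductase, log2 -0.23) was called, and all 24 intervals lay within 1.5-fold. In the fatty acid list Acacb was higher and Scd1 lower of 22. Of 31 ATF4 and unfolded protein response genes, the chaperones Hsp90b1 and Calr were higher, and Asns and Mthfd2, enzymes of amino acid and folate metabolism, were lower. Of 22 NRF2 and AHR genes, Gsta4 was higher and Aldh1a1 and Ahr lower. All 31 and 20 of the 22 intervals in these lists lay within 1.5-fold. The shares called were 2.78% of the proliferation, 4% of the cyclin and 4.17% of the cholesterol list, against 3.43% of all genes. They were 9.09% of the fatty acid, 12.9% of the ATF4 and 13.6% of the NRF2 and AHR list. Single dishes decided several of these calls. Scd1 lost its call in 6 of 6 such fits, Acacb and Mthfd2 in 5, Calr in 4 and Asns and Tm7sf2 in 3, while Gsta4 and Aldh1a1 kept theirs in all 6. Without ∆CT dish 3, 0 of the ATF4 list were lower, as without K1030R dish 1 or 3.

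Of 19 adipocyte lineage genes, Car3 was higher and Lpl, Cebpd and Ebf3 were lower (21.1%, against 3.43% of all genes). For 13 of 19 the interval lay within 1.5-fold, against 74.8% of all tested genes. By level, that share was 61% from 1 to 10 CPM, 98.6% from 10 to 100 CPM and 99.1% from 100 CPM. The counts were 0 higher and 1 lower without K1030R dish 1 or ∆CT dish 3, and 0 and 2 without K1030R dish 3 or ∆CT dish 1. Car3 lost its call in those 4 fits, and also in limma-voom and the fit of the 6 libraries alone. Lpl, the lipoprotein lipase that frees fatty acids for uptake, had 33.5, 36.5 and 36.3 CPM in K1030R and 28.5, 29.9 and 29.4 CPM in ∆CT dishes, without overlap (log2 -0.28, SE 0.05, adjusted p = 0.000409). Pdgfra, a receptor that marks adipocyte progenitors, was higher in ∆CT cells, with 167, 175 and 164 CPM in K1030R and 236, 220 and 244 CPM in ∆CT dishes (log2 0.47, SE 0.04, adjusted p = 6.12e-11). Of the 9 preadipocyte markers, 6 passed the filter and were tested. Cd34 was the other that was called higher (log2 0.41, adjusted p = 0.00682), and 0 were called lower. The estimates of Thy1 (-0.20, adjusted p = 0.062) and Ly6a (-0.28, adjusted p = 0.401) were below 0. Those of Pdgfrb and Zfp516 were 0.05 and 0.08, neither called, so the markers did not move in a single direction. Among imprinted growth regulators, Grb10 was higher and Igfbp7 lower of 11 tested (18.2%). Of 13 mitochondrially encoded transcripts mt-Nd5 was lower (7.69%, log2 -0.17, adjusted p = 0.00939).

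**Figure D4:**
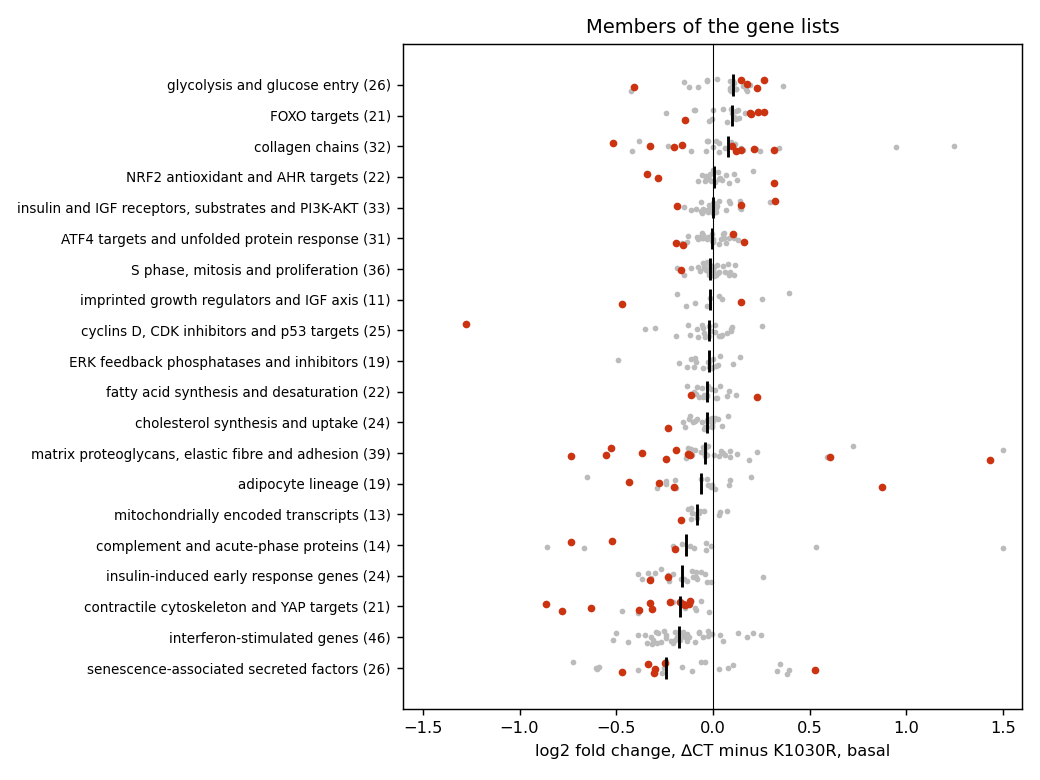
Log2 fold change, ∆CT minus K1030R without insulin, of each tested member (points; red where called with no minimum fold) and the median (bar) of 20 gene lists, with the number tested in parentheses and values beyond 1.5 drawn at 1.5. Most medians lie within 0.1 of 0, and in the contractile list all points lie below 0.

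The remaining named genes with the largest differences were of low abundance. Ptgfr, the prostaglandin F receptor, had 1.89, 2.22 and 2.64 CPM in K1030R and 3.70, 3.80 and 4.55 CPM in ∆CT dishes (log2 0.83, SE 0.16, adjusted p = 0.00104). Tcim, a regulator in the WNT pathway, had 4.91, 4.23 and 3.73 against 6.64, 7.79 and 6.42 CPM (log2 0.70, adjusted p = 0.000584). Ptgfr and Tcim, like the other genes of this paragraph, were named under a rule that required groups without overlap. The lack of overlap therefore adds no support. Sobp, Gpr141, Mab21l3, Piezo2 (a mechanically gated channel), Chrdl1 (a BMP antagonist) and Insc had log2 fold changes from 0.71 to 0.97. Epha4, an ephrin receptor, and Mcam, an adhesion molecule of perivascular cells, were lower, with log2 fold changes of -0.86 (adjusted p = 0.00462) and -0.86 (adjusted p = 0.00109), and the interferon-inducible Ifi205 and the guidance factor gene Slit3 with -0.85 and -0.81. Gm12185, 4930486L24Rik and Map2k3os were also lower. Leaving out 1 dish ended the calls of these last 3 genes in 5 of 6 fits each, those of Gpr141, Mab21l3 and Slit3 in 4, of Piezo2, Chrdl1 and Insc in 3 and of Sobp in 2. The calls of Ptgfr, Tcim, Epha4, Mcam and Ifi205 held in all 6. Map2k3os is antisense to another gene, and whether counting used the strand is not given in the sources used here. Of these genes, Gpr141, Mab21l3, Insc and Map2k3os had log2 fold changes of 0.11, -0.23, 0.01 and 0.19 in the insulin dishes, none of them called there.

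The dishes given insulin repeated the comparison of the same lines in other libraries. Of the 529 genes, 508 had the same sign in insulin dishes, and 281 (53.1%) were called in the same direction there, against 5.03% of all genes called in that comparison. Only 2 were called in the opposite direction. All 6 genes of the minimum-fold test were called in insulin dishes, with log2 fold changes of 1.46 for Fbn2, 1.11 for Hopx, -0.94 for Acta2, -1.28 for Ccnd2, -1.51 for Ms4a4d and -3.21 for Nova1. With the minimum fold, 29 genes differed (0.188%), 25 higher and 4 lower. Of the contractile list, 14 members were lower in insulin dishes and 1 (Ccn1) higher, against 2.78% and 2.25% of all genes. The libraries are separate, but the cell populations are the same, and both comparisons came from the same fit with a shared estimate of spread.

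The difference between the lines depended on insulin for 64 genes (0.416%; interaction in edgeR's quasi-likelihood test), of which 63 were higher in ∆CT relative to K1030R cells with insulin than without. These were led by immediate early genes. Egr2, a zinc finger transcription factor, had 4.03, 3.22 and 3.83 CPM in basal K1030R and 2.85, 2.40 and 3.31 CPM in basal ∆CT dishes, which overlap, and with insulin 3.08, 3.83 and 2.83 against 28.1 and 28.9 CPM. Of the 24 early response genes, 23 had a basal estimate below 0 (median -0.16). The 2 that were called (8.33%, against 3.43% of all genes), Btg2 and Ccn1, were lower in basal ∆CT cells. The number called was 1 without K1030R dish 1, K1030R dish 3, ∆CT dish 1 or ∆CT dish 2, with Ccn1 lost in 4 and Btg2 in 2 of the 6 such fits. With insulin 20 of 24 were higher in ∆CT cells and the median was 1.62. This list was assembled with the insulin response of these cells known. Of 19 ERK feedback genes none was called in basal dishes by edgeR (0 higher and 0 lower, and 2 at an unadjusted p under 0.05). By limma-voom 0 were called and by DESeq2 0. Of their intervals, 18 lay within 1.5-fold, against 74.8% of all tested genes. By level, that share was 61% from 1 to 10 CPM, 98.6% from 10 to 100 CPM and 99.1% from 100 CPM.

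The small differences were unevenly spread over chromosomes. The median log2 fold change ran from -0.04 on chromosome 12 to 0.05 on chromosome 5 over the 20 chromosomes 1 to 19 and X. On chromosome 10, 37 genes were higher and 2 lower in ∆CT cells, and on chromosome 5, 34 and 9. On chromosome 12, 2 were higher and 23 lower, on chromosome 19, 1 and 23, on chromosome 17, 4 and 26, and on chromosome 6, 7 and 28. The share called on these chromosomes ran from 3.91% (chromosome 17) to 4.94% (chromosome 10), against 3.43% of all genes. Over all genes 1.49% were higher and 1.95% lower. The split by direction was thus more uneven than the share called. In windows of 20 Mb with at least 20 tested genes, all 7 windows of chromosome 10 and 6 of 8 of chromosome 5 had a positive median, and all 6 of chromosome 12 a negative one. The other windows of chromosome 5 had medians of -0.0062 (0 to 20 Mb) and -0.0314 (80 to 100 Mb). All windows of chromosomes 17 and 6 had a negative median. Chromosome 19 was uneven, with a median of -0.0597 and 11 lower genes from 20 to 40 Mb. Its other windows had medians of -0.0026 (0 to 20 Mb, 5 lower genes) and -0.0109 (40 to 60 Mb, 5 lower genes). Each dish was then described by the median deviation of its genes from the mean of both lines. On chromosome 10 the 5 ∆CT dishes, basal and insulin, lay between 0.0218 and 0.0336 and the 6 K1030R dishes between -0.0277 and -0.0221. On chromosome 5 they lay between 0.0160 and 0.0267 and between -0.0318 and -0.0217, and on chromosome 12 between -0.0276 and -0.00960 and between 0.0135 and 0.0211. All ∆CT dishes lay above all K1030R dishes on 7 chromosomes and below them on 6. These shifts are smaller than the smallest fold among the 529 called genes, 1.07, and their cause was not tested.

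**Figure D5:**
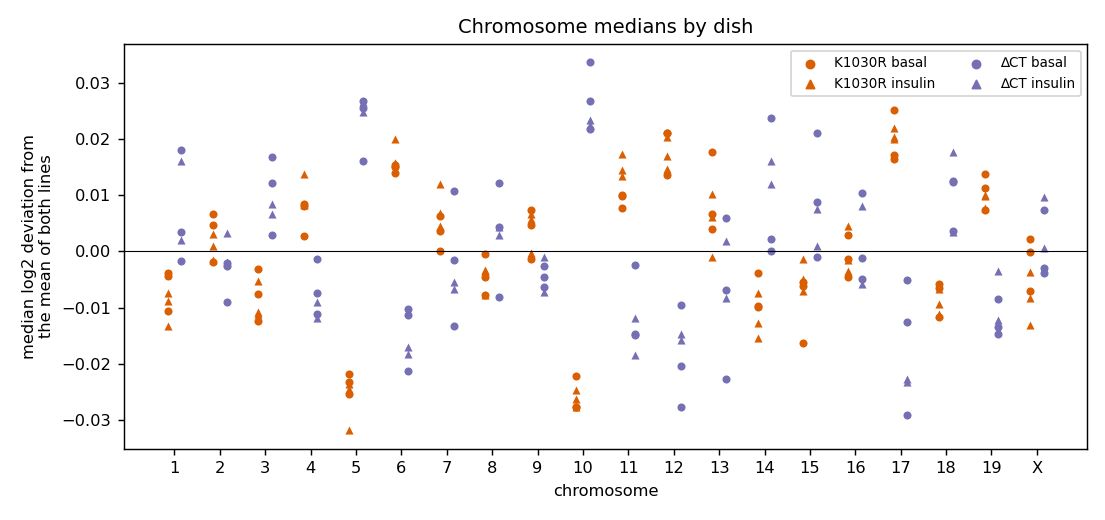
Median over the tested genes of each chromosome of the log2 CPM deviation of a dish from the mean of both lines in the same treatment (circles basal, triangles insulin; orange K1030R, purple ∆CT). The lines are set apart with the most room on chromosomes 5 and 10, where ∆CT is higher, and lie on the opposite sides on chromosomes 6, 12 and 17.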

How the data were processed

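RNA was captured with oligo-dT from cultured cells. The deposited values are expected counts per gene, which the authors made by trimming reads with fastp, assigning them to mouse transcripts (Ensembl version 98) with kallisto and summing to genes with tximport, without scaling or filter. Here they were rounded, scaled with TMM factors and fitted with edgeR 4.0.16 (R 4.3.3), 1 mean per group over 26 libraries, with Benjamini-Hochberg adjustment at 0.05, glmTreat at 1.5-fold and the quasi-likelihood test without a minimum fold. Distances used log2 CPM after adding a prior count (2). Coordinates are from GENCODE release 21. Library totals ran from 17228982 to 24694828, so 0.5 CPM is about 10 counts. Groups came from the labels. Deviations from the group mean in dishes of equal replicate number had correlations of -0.0063, -0.108 and -0.0615, and no pairing was used. The labels do not say whether equal numbers share a batch. Named genes were both receptors, all minimum-fold calls, the 12 highest and 12 lowest calls from 1 CPM without overlap, the 4 smallest p of each list and the 10 most abundant bounded genes. Genes named beyond the rule, such as all called members of a list, Pdgfra, Cd34, Irs1, Akt1, Mki67, Irf9 and Isg15, were chosen after their values were seen. Members and lists were chosen with earlier results of these data known. The procedure was tested on simulated data. P-values measure the spread between dishes. Alternatives were RLE scaling, other filters, limma-voom 3.58.1, DESeq2 1.42.0, a fit of the 2 groups, a replicate block, other thresholds and each dish left out.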

Additional observations from a re-analysis of the deposited data

Results flagged for a closer look

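For 5 named genes the difference between ∆CT and K1030R cells was not the same with and without insulin, by the interaction test of edgeR's quasi-likelihood fit with Benjamini-Hochberg adjustment. Egr2, Btg2 and Ccn1, early genes, had log2 differences of 3.50, 2.36 and 2.21 (insulin minus basal), with adjusted p = 4.2e-16, 2.53e-22 and 1.03e-12. For Errfi1, an inhibitor of the EGF receptor, the value was 1.63 (adjusted p = 6.53e-13), with 31.8, 28.8 and 25.8 CPM in K1030R and 80.5 and 81.5 CPM in ∆CT dishes given insulin. For Insr it was 0.38 (SE 0.07, adjusted p = 0.0011). Insr had 69.3, 65.5 and 69.8 CPM in K1030R and 96.4 and 99.7 CPM in ∆CT dishes given insulin for 15 min, and IR cells had 89.9, 87.5 and 85.2 CPM with insulin against 65.9, 67.8 and 69.3 CPM without. These reads were counted on mouse transcripts although the added receptors are human, and basal DKO cells had 23.8 ± 1.32 CPM. Whether the difference lies in RNA of the mouse gene or of the added receptor was not tested.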

How the results depend on the processing

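The replicates are dishes of 1 population per receptor, and genes under 1 CPM are bounded poorly. The 6 genes of the minimum-fold test kept their direction and an adjusted p under 0.05 without a minimum fold in every alternative that gave them a value, limma-voom and DESeq2 included, with the highest adjusted p, 0.00819, for Nova1. The count of genes past the minimum fold of 1.5, 6 in the report, was 51 with no filter on low counts, 30 at a minimum fold of 1.2 and 3 with DESeq2, the cause of the first and last not being tested, and 5 to 6 with 1 dish left out. The count without a minimum fold, 529 in the report, was 137 in a fit of the 2 groups only, which has fewer samples, and ranged from 275 to 569 with 1 dish left out. Bounded genes numbered 11159 to 11274 in those fits, the minimum-fold count in insulin dishes 25 to 28 and the interaction count 49 to 63. The replicate block gave 6, 604 and 11525 genes in the basal comparison, 30 in insulin dishes and 68 interactions, changing no count by more than 1.5 times. Dishes of equal replicate number were not positively correlated, but noise of low genes enters that check and it cannot show that no batch was shared. The block turned the call of 4 named genes, Map2k3os, Ccn2, Fads3 and Eda2r. Of 1412 values of named genes, 189 lost the call, 33 gained one and 1 changed sign (Eef1a1, to 0.0049 without ∆CT dish 3, with a range from -0.0269 to 0.0049 over left-out dishes). Of 140 list medians, 12 moved by more than the SD between dishes. The distance gap was 0.011 (exact permutation p = 0.3) with a prior count of 0.5 and 0.0155 (p = 0.9) over the 500 most variable genes. RLE scaling shifted the median log2 fold change by 0.00236.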
